A study of Mus musculus with 85 samples.

Results

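Mouse 2-cell embryos cultured without pyruvate until 55 h were compared with the standard embryos nearest to them in transcriptome stage. The 7 libraries, of 85 in the series, were chosen by the titles of the samples. They are the 4 libraries titled No pyruvate 2-cell latest and the 3 libraries titled Very late 2-cell. All came from wild type embryos of the B6C3F1/J strain, and RNA was read by Smart-seq2, a method that copies polyadenylated RNA along its full length. The no-pyruvate embryos were 55 h past the injection of hCG, the hormone that sets the time of ovulation, and grew in KSOM medium from which pyruvate had been removed, so that glucose and L-lactate remained. The very late 2-cell embryos were 52 h past hCG and grew in complete KSOM, with glucose and pyruvate at 0.2 mM each and L-lactate at 5 mM. The labels do not say how many embryos or which litters and cultures went into a library, so the spread between libraries may be technical. Age differs between the groups along with medium, and the effects of the 2 cannot be told apart in this pair.

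The mouse zygote and 2-cell embryo use pyruvate as their main fuel, and glucose becomes a usable fuel only later in cleavage. During the 2-cell stage the embryo destroys most of the RNA stored in the oocyte and starts transcription from its own genome, in a brief early wave of repeat-driven genes and then a broad wave of housekeeping genes. Lysosomes, the ribosome supply and the enzymes of amino acid and nucleotide synthesis respond to nutrient supply in many mammalian cells, through the mTOR, AMPK, MYC and TFEB families of regulators.

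The pair was picked because the groups are close in overall transcriptome, and the measure behind that choice is shown first as a description. Stage position places each library between the mean of early 2-cell embryos (34 h, at 0) and that of late 4-cell embryos (62 h, at 1), over the 12106 genes that differ at least 2-fold between those ends. The no-pyruvate libraries at 55 h lay at 0.762, 0.770, 0.688 and 0.720, against 0.774, 0.780 and 0.771 for the very late 2-cell libraries. All 4 no-pyruvate libraries lay below the 3 very late 2-cell libraries, with means of 0.735 ± 0.0382 (SD, n = 4) and 0.775 ± 0.0045 (SD, n = 3). Standard late 2-cell embryos (48 h) averaged 0.617 and early 4-cell embryos (55 h) 0.916, and no-pyruvate embryos 3 h younger averaged 0.419.

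**Figure D1:**
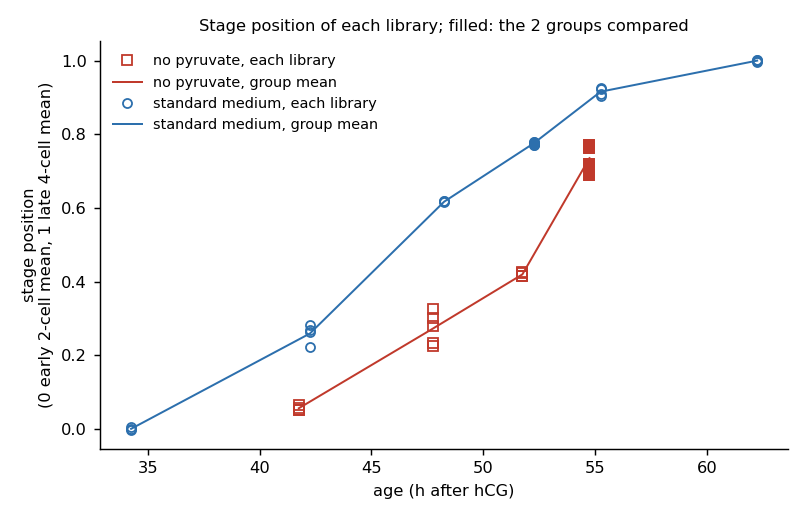
Stage position of each library (vertical axis, no unit) against age in h after hCG, for no-pyruvate embryos (red squares) and standard embryos (blue circles), with lines through the group means and filled symbols for the 2 groups compared. The no-pyruvate libraries at 55 h lie between 0.688 and 0.770, just below the very late 2-cell libraries at 0.771 to 0.780.

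The libraries held 14.8, 18.7, 10.2 and 16.3 M reads in the no-pyruvate group, against 19.6, 12.1 and 11.6 M in very late 2-cell embryos, as inferred from the smallest step between the values. Values are CPM, counts scaled to the same total in each library and so a share of a library's RNA, and fewer cells with a transcript and less of it per cell cannot be told apart. Across genes, the correlation between 2 libraries of a group (Pearson's r of log2 values) was 0.926 to 0.957 in the no-pyruvate group, against 0.978 to 0.980 in the very late 2-cell group. The median SD of a gene's log2 value was 0.448 in the no-pyruvate group, against 0.249 in the very late 2-cell group. The 100 most abundant genes took 29.1%, 20.7%, 28.9% and 25% of the values in the no-pyruvate libraries, against 21.1%, 20.7% and 24.4% in very late 2-cell libraries. Mitochondrially encoded genes took 9.98%, 5.06%, 10.6% and 8.01% of the values in no-pyruvate libraries, against 6.76%, 6.50% and 9.87% in very late 2-cell libraries, so both measures overlapped between the groups. AY036118, an entry that overlaps ribosomal RNA genes and was singled out after its values were seen, set the no-pyruvate libraries apart: it was at 0.0217 CPM or less in all 4, against 338, 1263 and 951 CPM in very late 2-cell libraries. It was at 1.05 CPM or more in every other 2-cell library of the 9 groups used below and at 0.0402 CPM or less in every 4-cell library of the standard course, and its part in the results was not tested.

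Both groups carried the markers of the 2-cell stage. Zscan4d, of the early genome activation wave, was at 79.8 to 202 CPM in no-pyruvate libraries, against 23.5 to 58.2 CPM in very late 2-cell libraries, and the oocyte gene Btg4, which helps to clear maternal RNA, was at 256 to 406 CPM in no-pyruvate libraries, against 239 to 283 CPM in very late 2-cell libraries. Cdx2, a gene of the later trophectoderm, was listed at 0.0001 CPM, the lowest value of the table, in all 7 libraries. Other markers of later lineages differed: Krt18 was at 10.1 to 19.9 CPM in no-pyruvate libraries, against 1.12 to 2.90 CPM in very late 2-cell libraries, and Nanog at 12.2 to 17.4, against 5.92 to 9.20 CPM. Sox17 reached 6.51 CPM, against 0.247 CPM at most, with overlap, and Gata6 was at 1.04 to 3.62, against 2.75 to 5.02 CPM. Of 8 cumulus and granulosa cell markers tested, none passed the threshold used below, and their summed level was 4.07 to 14.3 CPM in no-pyruvate libraries, against 3.21 to 9.88 CPM in very late 2-cell libraries. The 2 sperm markers and the 1 fibroblast marker tested did not pass either. Of 4 blood cell markers tested, 1 was higher, the lysozyme gene Lyz2, at 2.75 to 4.95 CPM in no-pyruvate libraries, against 0.344 to 0.906 CPM in very late 2-cell libraries. The other blood markers with a level above 5 CPM were the alpha-globin genes Hba-a1 and Hba-a2, whose ranges overlapped between the groups, and Ptprc, which marks all white blood cells, was at 0.0537 CPM or less in every library.

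Of 20739 genes tested, 3806 were higher and 3344 lower in no-pyruvate embryos at 55 h (limma on log2(CPM + 1), 2-sided, Benjamini-Hochberg adjusted p under 0.05). These are 18.4% and 16.1% of the genes, with a median log2 change of 0.0041 over all of them. The stage match used the genes that differ along the standard course, so the counts over those genes are a description of what the choice of groups left. Among the 12007 genes on the stage line, 1691 (14.1%) were higher and 2456 (20.5%) lower. Among the 8732 genes off the line, which the match did not use, 2115 (24.2%) rose and 888 (10.2%) fell, with a median log2 change of 0.16. A gene could enter the test through the no-pyruvate libraries at 55 h alone. A gene near the lowest value in all standard embryos counts as off the line and could hardly fall. The filter thus favours rises off the line, and how far it did so was not tested. With a filter of 5 CPM, 1044 off-line genes rose and 517 fell. Adjusted p-values are given below for genes off the line, and genes on the line are given by their values.

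The test shared 1 estimate of the spread per gene over 9 groups of 34 libraries. The SE and p-values below rest on that estimate and do not measure the spread of the 2 compared groups alone. With the 2 compared groups alone in the fit, 1700 of the higher genes and 1429 of the lower genes kept the call, and off the line 831 and 288 did. Values of the 4 no-pyruvate libraries and of the 3 very late 2-cell libraries did not overlap for 1373 of the off-line genes that rose and 608 of those that fell. Over all off-line genes, called or not, 17.5% lay higher and 8.45% lower without overlap.

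Most genes that passed did not lie between the very late 2-cell level and that of the neighbouring standard stages. Of the genes called higher, 386 had a no-pyruvate mean between the means of late and very late 2-cell embryos only, 208 had one between very late 2-cell and early 4-cell embryos only, and 13 lay between both. For 3199 of them the mean lay between neither pair. Of the genes called lower, 537 lay on the side of the late 2-cell embryos only, 714 on the side of the early 4-cell embryos only, 63 between both pairs, and 2030 between neither pair. Genes that passed were selected for lying away from the very late 2-cell level, and the same counts over all genes tested were not made. The counts therefore do not measure how many levels go beyond a delay.

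The largest off-line differences were named only among genes whose libraries did not overlap between the groups. Of those whose higher group averaged 20 CPM or more, the largest rise was that of Figla, the oocyte transcription factor that turns on the zona pellucida genes (chr6:86016171-86020996, plus strand). Figla was at 51.4, 15.0, 68.8 and 45.0 CPM in the no-pyruvate libraries, against 0.204, 0.165 and 0.515 CPM in the very late 2-cell libraries. The lowest no-pyruvate library was far above the highest of all 21 standard libraries between 34 and 62 h, which had 1.49 CPM, and the log2 change was 4.98 ± 0.33 (SE), with an adjusted p of 6.3e-13 (limma). Figla averaged 3.52 CPM without pyruvate at 52 h, 3 h before. Bex3, a small X-linked protein of p75 neurotrophin receptor signalling, was at 15.6, 11.05, 43.0 and 60.0 CPM in the no-pyruvate libraries, against 0.056, 0.083 and 0.515 CPM in the very late 2-cell libraries (log2 change 4.49 ± 0.39 (SE), adjusted p = 1.6e-10, limma). Herpud1, an endoplasmic reticulum protein that serves the degradation of misfolded proteins, was at 8.67, 14.8, 50.2 and 50.4 CPM in the no-pyruvate libraries, against 0.407, 0.988 and 1.63 CPM in the very late 2-cell libraries (log2 change 3.70 ± 0.41 (SE), adjusted p = 1.9e-08, limma). For both genes every no-pyruvate library lay above every standard library, and libraries 3 and 4 were the highest. Over the alternative settings given at the end, the highest adjusted p was 1.4e-04 for Figla, 3.8e-04 for Bex3 and 0.0016 for Herpud1 (limma).

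Zswim2, a testis ubiquitin ligase, was at 15.0, 28.0, 49.8 and 54.3 CPM in the no-pyruvate libraries, against 1.53, 6.09 and 1.46 CPM in the very late 2-cell libraries (log2 change 3.26 ± 0.36 (SE), adjusted p = 2.1e-08, limma). Fgf15, the mouse counterpart of the bile acid hormone FGF19, was at 8.96, 21.3, 24.7 and 33.3 CPM in the no-pyruvate libraries, against 2.07, 1.07 and 1.98 CPM in the very late 2-cell libraries (log2 change 2.98 ± 0.47 (SE), adjusted p = 7.9e-06, limma). Lipg, endothelial lipase, was at 18.3, 18.9, 53.9 and 27.5 CPM in the no-pyruvate libraries, against 3.92, 3.13 and 1.20 CPM in the very late 2-cell libraries (log2 change 2.97 ± 0.37 (SE), adjusted p = 1.5e-07, limma). Teddm2, an epididymal-type membrane protein gene, rose by 3.25 ± 0.30 (SE) on the log2 scale (adjusted p = 4.9e-10, limma).

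The falls off the stage line were smaller. Kyat3, a kynurenine aminotransferase (chr3:142701051-142746870, plus strand), was at 6.57, 8.22, 6.74 and 0.737 CPM in the no-pyruvate libraries, against 38.6, 38.0 and 34.0 CPM in the very late 2-cell libraries (log2 change -2.77 ± 0.34 (SE), adjusted p = 1.1e-07, limma). Ppp2r3a, a regulatory subunit of protein phosphatase 2A, was at 3.12, 6.49, 2.84 and 2.70 CPM in the no-pyruvate libraries, against 12.4, 22.8 and 34.2 CPM in the very late 2-cell libraries (log2 change -2.29 ± 0.32 (SE), adjusted p = 1.1e-06, limma). Dusp10, a phosphatase of the JNK and p38 kinases, was at 31.9, 71.0, 71.9 and 40.5 CPM in the no-pyruvate libraries, against 201, 240.3 and 189 CPM in the very late 2-cell libraries (log2 change -2.02 ± 0.23 (SE), adjusted p = 5.0e-08, limma). The rule that named these 3 genes required that their libraries not overlap between the groups.

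Gins2, a subunit of the replicative helicase, was at 13.7, 16.8, 16.4 and 6.44 CPM in the no-pyruvate libraries, against 52.7, 45.4 and 47.5 CPM in the very late 2-cell libraries (log2 change -1.86 ± 0.21 (SE), adjusted p = 2.7e-08, limma). Mavs, the mitochondrial adaptor of antiviral RNA sensing, was at 5.35, 17.5, 24.3 and 10.9 CPM in the no-pyruvate libraries, against 35.4, 55.7 and 55.6 CPM in the very late 2-cell libraries (log2 change -1.84 ± 0.39 (SE), adjusted p = 4.2e-04, limma). Rdh12, a retinol dehydrogenase, was at 8.54, 12.1, 6.27 and 10.7 CPM in the no-pyruvate libraries, against 27.1, 27.1 and 53.2 CPM in the very late 2-cell libraries (log2 change -1.78 ± 0.25 (SE), adjusted p = 1.5e-06, limma). None of these 6 genes had all 4 libraries below every standard library. Dusp10, which peaks at the very late 2-cell stage in standard embryos, averaged 19.7 CPM in early 2-cell embryos and 29.2 CPM in early 4-cell embryos. Kyat3, Gins2 and Mavs also rose and fell along the standard course. Their means were 11.2, 14.7 and 15.0 CPM in early 2-cell, 39.3, 48.9 and 33.5 CPM in late 2-cell, and 13.2, 17.8 and 9.51 CPM in late 4-cell embryos.

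The largest differences on the stage line included regulators of signalling and of the first genome activation. Duxf3, the homeobox factor Dux that starts the early wave of genome activation, was at 52.7, 23.3, 128 and 87.4 CPM in the no-pyruvate libraries, against 1.36, 1.24 and 0.046 CPM in the very late 2-cell libraries (log2 change 5.13). Its level in no-pyruvate embryos at 52 h was 11.1 CPM, and in early 2-cell embryos, its standard peak, 11.1 CPM. Dusp3, a phosphatase of ERK and JNK kinases, was at 134, 16.5, 291 and 98.5 CPM in the no-pyruvate libraries, against 1.79, 2.55 and 2.62 CPM in the very late 2-cell libraries (log2 change 4.79). Klf6, a zinc finger factor induced by stress and growth signals, was at 18.1, 19.7, 59.3 and 52.3 CPM in the no-pyruvate libraries, against 0.815, 2.22 and 2.40 CPM in the very late 2-cell libraries (log2 change 3.63). Lack of overlap between the groups was required by the rule that named these 3 genes. In each of them no-pyruvate library 3 was the highest.

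Atp7b, a copper-exporting ATPase, averaged 37.7 ± 19.1 CPM in no-pyruvate embryos, against 1.47 ± 0.777 CPM in very late 2-cell embryos (SD, n = 4 and 3), and Stard4, a cytosolic cholesterol carrier, 65.2 ± 48.8 CPM in no-pyruvate embryos, against 2.83 ± 1.14 CPM in very late 2-cell embryos. Their log2 changes were 3.81 and 3.86. The line genes lowest in no-pyruvate embryos were ones whose standard level climbs during the 2-cell stage. Enpp3, an ectonucleotidase, was at 0.881, 3.16, 0.490 and 1.23 CPM in the no-pyruvate libraries, against 35.9, 37.5 and 39.8 CPM in the very late 2-cell libraries (log2 change -4.10), and its standard level had been 1.00 CPM at 34 h. Tuba3b, an alpha-tubulin gene with near-identical copies that can share its reads, was at 5.61, 9.36, 6.28 and 7.50 CPM in the no-pyruvate libraries, against 56.7, 67.0 and 40.9 CPM in the very late 2-cell libraries (log2 change -2.76). Spata21 and Fez2, a kinesin adaptor, were also lower, with log2 changes of -3.12 and -2.88, and the 4 genes were named under the same rule of no overlap.

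**Figure D2:**
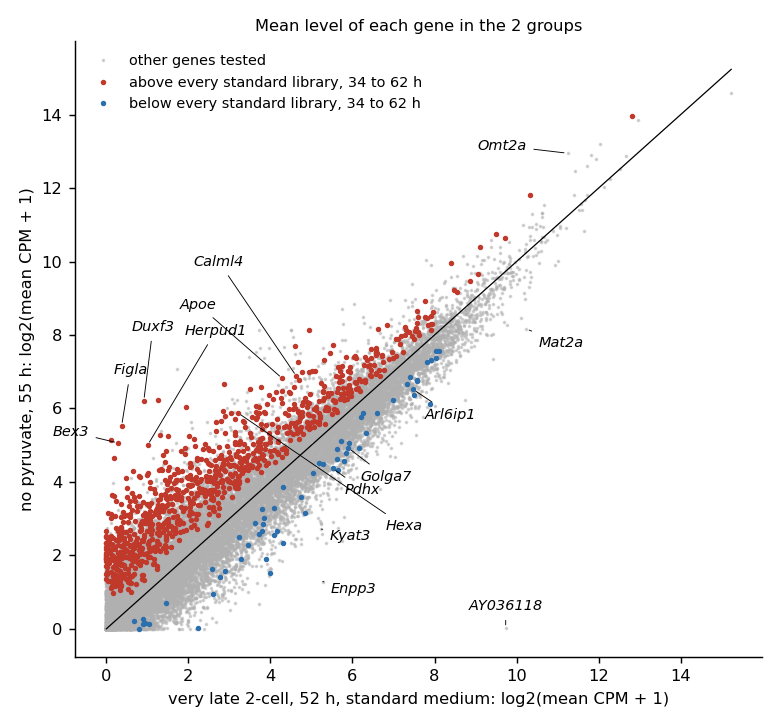
Mean level of each tested gene in no-pyruvate embryos at 55 h (vertical) against very late 2-cell embryos (horizontal), both as log2(mean CPM + 1), with the line of equal level. Red points are the 908 genes whose 4 no-pyruvate libraries all lie above every standard library between 34 and 62 h, and blue points the 60 genes that lie below.

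To find levels that no standard embryo of these ages had, the 4 no-pyruvate libraries were set against all 21 standard libraries from early 2-cell to late 4-cell embryos. All 4 lay above every one of them for 908 genes (4.38% of those tested), and below every one for 60 genes (0.289%). Off the stage line 613 genes (7.02%) lay above and 36 (0.412%) below. Here too a gene near the lowest value in standard embryos could lie above but hardly below. The predominance of genes above depended in part on scaling. It was 93.8% of the genes outside the range as deposited, 79.9% after median-ratio scaling and 71.8% after quantile scaling. With a minimum of 20 CPM in the nearest library on the higher side, 295 genes (1.42%) lay above and 30 (0.145%) below. Of the 908 genes above at 55 h, all no-pyruvate libraries also lay above the range for 3 at 42 h, 80 at 48 h and 293 at 52 h. The genes were selected at 55 h, so lower counts at other ages follow in part from that choice. Genes above the range at the younger ages in their own right were not counted.

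With that minimum, the genes farthest above the course on the log2(CPM + 1) scale were Calml4, Tmem256, Hexa, Apoe, Yod1 and Adamts19. Calml4, a calmodulin-like protein, was at 147, 88.0, 93.6 and 137 CPM in the no-pyruvate libraries, against 20.4, 28.7 and 22.3 CPM in the very late 2-cell libraries, and no standard library exceeded 28.7 CPM. Apoe, the lipid carrier of lipoproteins, was at 66.5, 133, 152 and 95.7 CPM in the no-pyruvate libraries, against 19.6, 16.0 and 20.1 CPM in the very late 2-cell libraries, with a standard maximum of 27.0 CPM. Yod1, a deubiquitinase that works with the segregase p97, was at 299.5, 109, 411 and 303 CPM in the no-pyruvate libraries, against 36.4, 18.2 and 34.0 CPM in the very late 2-cell libraries, with a standard maximum of 45.7 CPM. Tmem256, a small membrane protein, averaged 31.5 ± 7.86 CPM in no-pyruvate embryos, against 4.31 ± 2.80 CPM in very late 2-cell embryos, and Adamts19, a secreted metalloprotease of the gonad, 94.1 ± 32.6 CPM in no-pyruvate embryos, against 12.5 ± 2.56 CPM in very late 2-cell embryos (SD, n = 4 and 3). In each of these 5 genes the lowest no-pyruvate library was more than 2-fold above the highest standard library.

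The genes farthest below, with the same minimum, were lower by less. Pdhx, the subunit that anchors E3 in the pyruvate dehydrogenase complex, was at 12.7, 25.5, 23.2 and 17.5 CPM in the no-pyruvate libraries, against 45.8, 49.4 and 39.0 CPM in the very late 2-cell libraries (log2 change -1.18), and no standard library was under 39.0 CPM. Rpe, ribulose-phosphate epimerase of the pentose phosphate pathway, fell to 20.6, 24.0, 18.7 and 13.5 CPM in the no-pyruvate libraries, against 50.8, 46.6 and 50.6 CPM in the very late 2-cell libraries (log2 change -1.34 ± 0.17 (SE), adjusted p = 2.5e-07, limma). Arl6ip1, a protein that shapes endoplasmic reticulum tubules, had a log2 change of -0.94 ± 0.14 (SE) (adjusted p = 2.0e-06, limma). Mapre1, the microtubule end-binding protein EB1, Golga7, a cofactor of protein palmitoylation, and the zinc finger gene Zfp932 were the other 3, with log2 changes of -0.81, -0.99 and -1.31 (adjusted p = 5.5e-06, 8.0e-06 and 3.2e-05, limma).

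**Figure D3:**
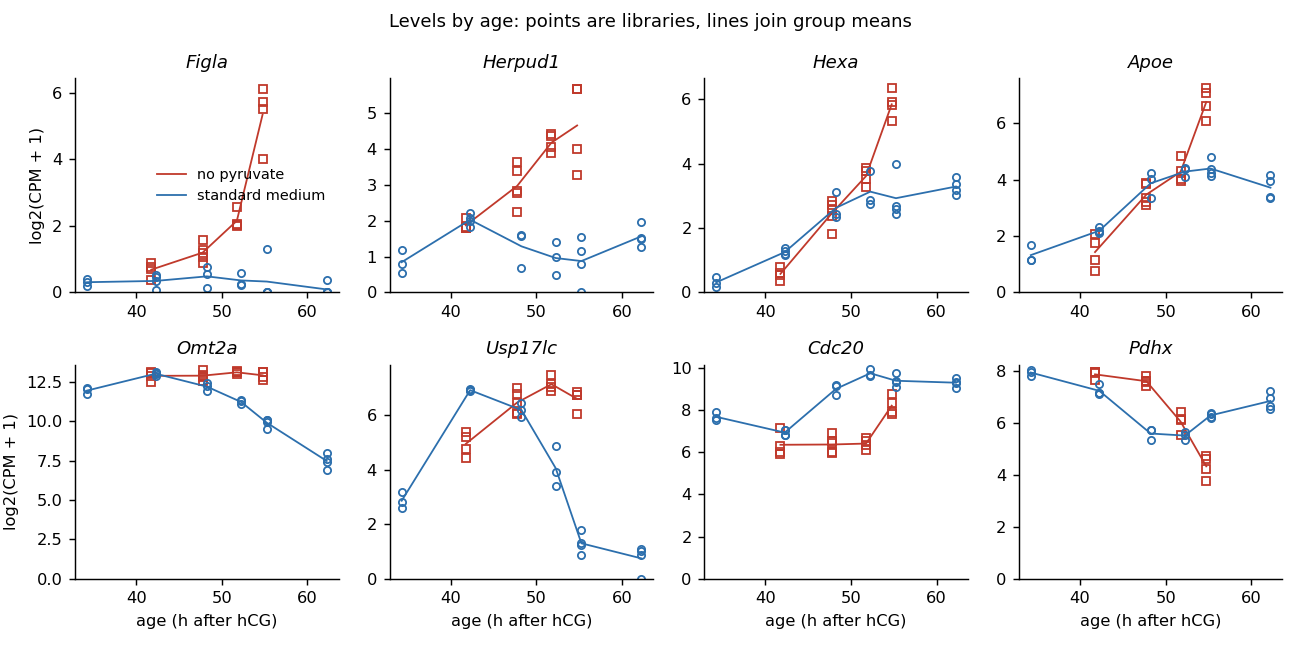
Levels of 8 genes as log2(CPM + 1) against age in h after hCG, with a point for each library and lines through the group means, for no-pyruvate (red squares) and standard embryos (blue circles). At 55 h the no-pyruvate libraries lie above all standard libraries for Figla, Herpud1, Hexa and Apoe and below them for Pdhx, Omt2a and Usp17lc are high beside the falling standard levels, and Cdc20 is low through 52 h.

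Hexa, the alpha subunit of the lysosomal hexosaminidase (chr9:59539540-59565109, plus strand), was another of these genes. It was at 38.5, 59.1, 79.5 and 54.7 CPM in the no-pyruvate libraries, against 12.7, 6.33 and 5.67 CPM in the very late 2-cell libraries (log2 change 2.71), and no standard library exceeded 14.9 CPM. In the list of autophagy and lysosome genes, 6 of 30 members were higher and 3 lower, with a median log2 change of -0.02, and so near the shares of all genes. Hexa, Rragd (a Rag GTPase that relays amino acid supply to mTOR, log2 change 2.10) and the protease Ctsd (log2 change 1.41) were among the higher.

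A longer list of lysosomal hydrolases and membrane proteins, drawn up after values of these data had been seen, had 20 of 69 members higher and 10 lower, with a median of 0.08. Over all genes 18.4% were higher and 16.1% lower. Of its members 8 lay above the standard course, where 4.38% of all genes did. Among them were Hexa, Dpp7, Mcoln1, the sulfatases Arsk and Arsa and the sialidase Neu1. Arsk was at 43.6, 53.9, 60.0 and 46.9 CPM in the no-pyruvate libraries, against 4.07, 14.7 and 4.72 CPM in the very late 2-cell libraries (log2 change 2.75 ± 0.33 (SE), adjusted p = 1.2e-07, limma). Its libraries did not overlap between the groups, as a place above the course requires. Other hydrolases were lower, among them the sulfatase Sgsh with a log2 change of -2.17 and the sphingomyelinase Smpd1 with -1.52, so the list did not move one way.

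Many lysosomal genes carry the CLEAR motif, the palindrome TCACGTGA, in their promoters, where the factors TFEB, TFE3 and MITF bind. The motif was counted in RefSeq promoters (250 bases before to 50 after the start, both strands, build GRCm38.p6), together with 7 others, after the values had been seen. Of the genes above the course, 577 have a promoter in the table, as do 12774 of the tested genes. The ER stress element stood in 0.173% of the former and 0.18% of the latter, and a DUX element in 0.173% and 0.172%. The sterol element stood in 0% and 0.0626%, and a longer DUX form in 0% and 0.0313%. The CLEAR motif stood in 28 of the 577 genes (4.85%), in 1.82% of the 12774 and in 0.974% of all 32851 promoters. It stood in 2.62% of genes called higher and in 1.24% of those called lower. Its core CACGTG, which TCACGTGA contains, stood in 17.3% of the genes above the course, 11% of tested genes and 7.15% of all promoters. The cyclic AMP element TGACGTCA stood in 3.99%, 3.18% and 1.79%, and the antioxidant core TGACNNNGC in 18.5%, 16.3% and 12.4%. Promoters of 5 genes above the course with the motif follow, printed 5′ to 3′ on the gene's strand with the motif in capitals.
Bex3: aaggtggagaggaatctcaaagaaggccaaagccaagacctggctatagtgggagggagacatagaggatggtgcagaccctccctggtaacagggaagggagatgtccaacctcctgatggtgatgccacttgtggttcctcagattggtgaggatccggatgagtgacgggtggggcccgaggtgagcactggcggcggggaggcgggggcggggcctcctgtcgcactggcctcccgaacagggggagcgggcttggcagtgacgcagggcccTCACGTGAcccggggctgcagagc
Dpp7: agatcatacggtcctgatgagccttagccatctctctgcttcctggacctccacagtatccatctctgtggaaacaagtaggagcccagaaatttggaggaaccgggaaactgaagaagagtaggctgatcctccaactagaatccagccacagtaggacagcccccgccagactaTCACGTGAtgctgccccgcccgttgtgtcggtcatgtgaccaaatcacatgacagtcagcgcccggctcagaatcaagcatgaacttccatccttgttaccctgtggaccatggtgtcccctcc
Mcoln1: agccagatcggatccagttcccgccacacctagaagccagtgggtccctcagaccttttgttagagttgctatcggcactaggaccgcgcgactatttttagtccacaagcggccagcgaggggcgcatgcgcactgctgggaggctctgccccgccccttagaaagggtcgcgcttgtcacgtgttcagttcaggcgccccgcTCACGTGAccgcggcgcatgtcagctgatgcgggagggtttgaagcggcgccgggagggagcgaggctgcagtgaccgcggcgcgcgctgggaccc
Atp6v1a: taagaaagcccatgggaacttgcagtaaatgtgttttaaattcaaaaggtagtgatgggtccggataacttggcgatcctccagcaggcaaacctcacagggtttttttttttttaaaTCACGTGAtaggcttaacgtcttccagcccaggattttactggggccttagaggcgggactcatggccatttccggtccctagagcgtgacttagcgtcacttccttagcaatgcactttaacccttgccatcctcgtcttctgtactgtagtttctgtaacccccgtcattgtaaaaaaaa
Mfsd1: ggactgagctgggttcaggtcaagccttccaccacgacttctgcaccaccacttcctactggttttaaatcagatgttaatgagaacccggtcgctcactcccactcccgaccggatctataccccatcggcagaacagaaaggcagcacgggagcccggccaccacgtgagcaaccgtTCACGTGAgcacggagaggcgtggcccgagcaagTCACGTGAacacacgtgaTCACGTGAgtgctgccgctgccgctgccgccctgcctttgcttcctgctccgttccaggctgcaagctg

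These lie at chrX:136270003-136270302, plus strand (Bex3), chr2:25356283-25356582, minus strand (Dpp7), chr8:3500269-3500568, plus strand (Mcoln1), chr16:44139210-44139509, minus strand (Atp6v1a) and chr3:67582518-67582817, plus strand (Mfsd1). They were chosen to show the motif beside genes of lysosomes and the strongest riser that carries it, and Mfsd1 holds 3 copies. Mcoln1, the lysosomal calcium channel TRPML1, was at 9.49, 18.4, 28.5 and 17.1 CPM in the no-pyruvate libraries, against 4.46, 5.68 and 6.01 CPM in the very late 2-cell libraries (log2 change 1.52 ± 0.31 (SE), adjusted p = 2.2e-04, limma). Atp6v1a, the catalytic subunit of the proton pump that acidifies lysosomes, was at 188, 164, 171 and 164 CPM in the no-pyruvate libraries, against 80.2, 109.7 and 124 CPM in the very late 2-cell libraries (log2 change 0.73 ± 0.19 (SE), adjusted p = 0.0028, limma). Dpp7, a lysosomal dipeptidase, averaged 31.5 ± 6.88 CPM in no-pyruvate embryos, against 7.77 ± 1.78 CPM in very late 2-cell embryos, and the lysosomal transporter Mfsd1 165 ± 29.5 CPM in no-pyruvate embryos, against 86.7 ± 5.05 CPM in very late 2-cell embryos (SD, n = 4 and 3). The 5 genes were drawn from those above every standard library, so their libraries could not overlap between the groups. Of the factors themselves, Tfe3 had a log2 change of 0.39 (adjusted p = 0.13, limma) and Tfeb and Mitf, on the line, of -0.33 and -0.71.

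Of 29 genes tested that handle pyruvate, lactate and glucose, 7 were higher and 6 lower in no-pyruvate embryos, with a median log2 change of 0.02. Of all genes, 18.4% were higher and 16.1% lower. Some subunits of pyruvate dehydrogenase and of the pyruvate carrier were lower. Besides Pdhx, the catalytic subunit gene Pdha1 was at 62.0, 89.7, 55.6 and 55.4 CPM in the no-pyruvate libraries, against 130.2, 117 and 129.7 CPM in the very late 2-cell libraries (log2 change -0.95). Mpc1, a subunit of the mitochondrial pyruvate carrier, was at 336, 376, 333 and 358 CPM in the no-pyruvate libraries, against 552, 474 and 513 CPM in the very late 2-cell libraries (log2 change -0.55). Neither gene overlapped between the groups. Other subunit genes did not pass, with log2 changes of 0.45 for Pdhb, 0.02 for Dlat, 0.02 for Dld and -0.14 for Mpc2. Of the enzymes that make pyruvate dehydrogenase active or inactive, the phosphatase Pdp1 and the kinase Pdk3 were higher, with log2 changes of 1.21 and 0.97, and their libraries overlapped between the groups. The phosphatase Pdp2 (1954 ± 950.1 CPM in no-pyruvate embryos, against 1338 ± 150.2 CPM in very late 2-cell embryos; log2 change 0.43) and the kinases Pdk1 (-0.25) and Pdk2 (0.63) did not pass.

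Pcx, pyruvate carboxylase, which turns pyruvate into oxaloacetate, was at 3.73, 5.64, 7.83 and 3.13 CPM in the no-pyruvate libraries, against 0.662, 0.576 and 1.80 CPM in the very late 2-cell libraries (log2 change 1.58 ± 0.30 (SE), adjusted p = 9.1e-05, limma). Of the malic enzymes, which release pyruvate from malate, the cytosolic Me1 was at 26.1, 26.7, 42.6 and 33.4 CPM in the no-pyruvate libraries, against 78.9, 69.5 and 77.3 CPM in the very late 2-cell libraries (log2 change -1.22), and the mitochondrial Me2 was at 46.7, 80.3, 109.7 and 71.9 CPM in the no-pyruvate libraries, against 47.5, 46.4 and 34.8 CPM in the very late 2-cell libraries (log2 change 0.78 ± 0.23 (SE), adjusted p = 0.0082, limma). Me1 did not overlap between the groups, and Me2 overlapped in 1 no-pyruvate library. Ldha, the lactate dehydrogenase subunit that favours lactate formation, was at 41.3, 21.0, 84.2 and 48.8 CPM in the no-pyruvate libraries, against 12.4, 20.5 and 22.9 CPM in the very late 2-cell libraries (log2 change 1.23). The lactate and pyruvate transporter Slc16a1 was at 41.7, 41.4, 33.2 and 77.7 CPM in the no-pyruvate libraries, against 28.5, 39.3 and 24.6 CPM in the very late 2-cell libraries (log2 change 0.59 ± 0.23 (SE), adjusted p = 0.043, limma), and Got2, a malate-aspartate shuttle enzyme, at 8.37, 1.95, 13.0 and 1.26 CPM in the no-pyruvate libraries, against 13.3, 12.5 and 7.59 CPM in the very late 2-cell libraries (log2 change -1.12 ± 0.35 (SE), adjusted p = 0.013, limma). The calls of Pdp1, Pdk3, Me2, Slc16a1 and Got2 were lost with only the compared groups in the fit. Of the 14 alternative settings given at the end, Slc16a1 lost its call in 7 and Got2 in 5. Pdp1 and Me2 lost it in 2 each and Pdk3 in 1.

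The glucose transporters differed in direction. Slc2a3 (GLUT3), the high-affinity transporter, was at 84.2, 131, 152 and 106 CPM in the no-pyruvate libraries, against 57.0, 36.0 and 48.4 CPM in the very late 2-cell libraries (log2 change 1.30), above every standard library. Slc2a8 (GLUT8), an intracellular transporter, was at 3.39, 6.16, 6.85 and 6.14 CPM in the no-pyruvate libraries, against 16.5, 16.8 and 20.3 CPM in the very late 2-cell libraries (log2 change -1.54). Among 21 genes of glycolysis and gluconeogenesis, 6 were higher and 4 lower, beside 18.4% and 16.1% of all genes. The largest rises were those of isoforms typical of brain, muscle and platelets, all at a low level. Aldoc, aldolase C, was at 2.64, 5.68, 12.8 and 15.6 CPM in the no-pyruvate libraries, against 0.407, 0.576 and 1.03 CPM in the very late 2-cell libraries (log2 change 2.39 ± 0.37 (SE), adjusted p = 5.8e-06, limma). Eno3, muscle enolase, rose by 2.35 ± 0.32 (SE) on the log2 scale (adjusted p = 8.7e-07, limma) and Pfkp, platelet phosphofructokinase, by 2.19 ± 0.36 (SE) (adjusted p = 1.4e-05, limma), and none of the 3 overlapped between the groups.

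**Figure D4:**
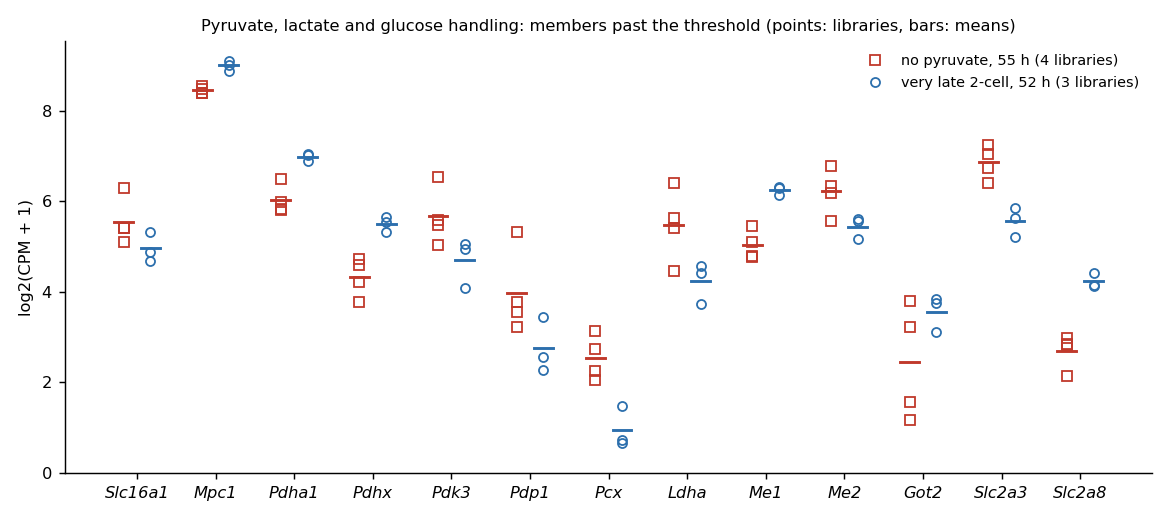
Levels as log2(CPM + 1) of the 13 genes of pyruvate, lactate and glucose handling that passed the threshold, with a point for each library and a bar at the group mean, no-pyruvate embryos at 55 h (red squares, left of each pair) and very late 2-cell embryos (blue circles, right). Pdha1, Pdhx, Mpc1, Me1 and Slc2a8 are lower in all 4 no-pyruvate libraries than in any very late 2-cell library, and Pcx and Slc2a3 are higher in all 4.

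Other mitochondrial lists had no clear direction. Of 24 genes of the TCA cycle, 3 were higher and 4 lower, led by Idh2, the mitochondrial NADP isocitrate dehydrogenase, which averaged 7.19 ± 3.43 CPM in no-pyruvate embryos, against 21.8 ± 0.821 CPM in very late 2-cell embryos (SD, n = 4 and 3). Of 70 nuclear genes of the respiratory chain, 6 were higher and 7 lower, fewer than the 18.4% and 16.1% of all genes. Of 15 mitochondrially encoded genes, 6 were higher and 3 lower, and none of the higher ones was free of overlap. Of 20 genes of fatty acid oxidation, 7 were higher and 5 lower. Hadh, a dehydrogenase of that pathway, was at 18.0, 25.2, 21.4 and 22.6 CPM in the no-pyruvate libraries, against 5.56, 7.59 and 3.86 CPM in the very late 2-cell libraries (log2 change 1.80 ± 0.24 (SE), adjusted p = 7.6e-07, limma). Cpt1a, which admits fatty acids to the mitochondrion, averaged 34.6 ± 17.6 CPM in no-pyruvate embryos, against 10.3 ± 1.33 CPM in very late 2-cell embryos.

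Genes of the early genome activation had more members higher than lower, and the stored RNA of the oocyte was mixed. Of 40 genes of the 2-cell burst, 19 were higher and 4 lower, with a median log2 change of 0.48, against 0.0041 over all genes, of which 18.4% were higher and 16.1% lower. Many belong to multi-copy families, so reads may be split among copies. Usp17lc, a deubiquitinase of a Dux-responsive family, was at 65.3, 107, 105 and 114 CPM in the no-pyruvate libraries, against 9.46, 28.2 and 14.0 CPM in the very late 2-cell libraries (log2 change 2.54), close to the 119.7 CPM of mid 2-cell embryos. Pramef25, another burst gene, was at 89.6, 169, 286 and 265 CPM in the no-pyruvate libraries, against 10.5, 39.3 and 7.77 CPM in the very late 2-cell libraries (log2 change 3.53). The 2 genes showed no overlap between the groups.

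Of 45 maternal transcripts, 13 were higher and 9 lower, with a median of 0.04. Over all genes 18.4% were higher and 16.1% lower. All but 3 of these transcripts lie on the stage line, where 14.1% of genes were higher and 20.5% lower. Omt2a, an abundant oocyte transcript, was at 7303, 6467, 8910.1 and 8963 CPM in the no-pyruvate libraries, against 2508, 2602 and 2169 CPM in the very late 2-cell libraries (log2 change 1.70), while standard embryos held 8427 CPM at 42 h and 980.0 CPM as early 4-cells. Bmp15, the oocyte growth factor, went the other way, with 38.1, 64.3, 65.9 and 47.0 CPM in the no-pyruvate libraries, against 213, 166 and 129.7 CPM in the very late 2-cell libraries (log2 change -1.64). It had been at 6491 CPM at 34 h in standard embryos and was at 27.6 CPM in early 4-cell embryos. Omt2a thus lay on the side of the younger standard embryos, and Bmp15 on the side of the older.

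Genes that supply ribosomes and nucleotides had many members lower and few higher. Of 79 cytosolic ribosomal protein genes, 41 were lower and 1 was higher, with a median log2 change of -0.63, against 0.0041 over all genes. Their summed level was 5848 to 9045 CPM in no-pyruvate libraries, against 8819 to 10350.1 CPM in very late 2-cell libraries, and the ranges overlapped at their ends. Rpl10a was at 20.9, 19.3, 10.2 and 11.3 CPM in the no-pyruvate libraries, against 33.8, 40.3 and 30.1 CPM in the very late 2-cell libraries (log2 change -1.17), although processed copies of such genes can share reads. Of 40 ribosome biogenesis genes, 11 were lower and none higher, with a median of -0.32. Polr1e, a subunit of the polymerase of ribosomal RNA, was at 114, 127, 93.1 and 129 CPM in the no-pyruvate libraries, against 314, 304 and 261 CPM in the very late 2-cell libraries (log2 change -1.34), with no overlap. All but 1 gene of each of these lists lie on the stage line, where 20.5% of genes were lower. Polr1e averaged 3.52 CPM in early 2-cell embryos and 379 CPM in early 4-cell embryos.

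Of 27 genes of nucleotide synthesis, 11 were lower and 1 was higher, with a median log2 change of -0.44. All but 2 of them lie on the stage line, where 20.5% of genes were lower. Over all genes 18.4% were higher and 16.1% lower, and the other lists of this paragraph stand beside the same shares. Umps, which makes UMP, was at 57.5, 108, 43.1 and 49.9 CPM in the no-pyruvate libraries, against 213, 234 and 231 CPM in the very late 2-cell libraries (log2 change -1.88). Ppat, the first enzyme of purine synthesis, was at 308, 347, 156 and 213 CPM in the no-pyruvate libraries, against 562, 684 and 605 CPM in the very late 2-cell libraries (log2 change -1.33). Of 18 genes of serine and one-carbon metabolism, 7 were lower and 3 higher. Mat2a, which makes the methyl donor S-adenosylmethionine, was at 234, 373, 247 and 297 CPM in the no-pyruvate libraries, against 999, 1295 and 1301 CPM in the very late 2-cell libraries (log2 change -2.07), and Mthfd1l, a mitochondrial formate-producing enzyme, at 1.29, 1.77, 3.04 and 2.27 CPM in the no-pyruvate libraries, against 9.93, 6.59 and 8.84 CPM in the very late 2-cell libraries (log2 change -1.63 ± 0.30 (SE), adjusted p = 7.1e-05, limma). None of these 4 genes overlapped between the groups. Of the MYC family and MAX network, 5 of 13 were higher and 1 lower. Mxd4, a repressor partner of MAX, was at 34.6, 23.2, 34.8 and 24.3 CPM in the no-pyruvate libraries, against 15.0, 15.1 and 7.04 CPM in the very late 2-cell libraries (log2 change 1.22 ± 0.23 (SE), adjusted p = 7.6e-05, limma). Mycl rose by 1.52 ± 0.30 (SE) on the log2 scale (adjusted p = 1.6e-04, limma), while Myc itself averaged 19.6 ± 7.73 CPM in no-pyruvate embryos, against 34.5 ± 2.01 CPM in very late 2-cell embryos. The calls of Mnt, Mycn, Myc and Max did not hold with only the compared groups in the fit. Of the 14 alternative settings given at the end, Mycn and Myc lost their calls in 5 each, Max in 4 and Mnt in 1.

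Of 40 genes of G2 and mitosis, 17 were lower and 2 higher, with a median of -0.39. Over all genes 16.1% were lower, and on the stage line, where all but 12 of these genes lie, 20.5%. Cdc20, the activator of the anaphase-promoting complex, was at 323, 437, 224 and 241 CPM in the no-pyruvate libraries, against 797, 989 and 804 CPM in the very late 2-cell libraries (log2 change -1.54), and had been at 85.2 CPM without pyruvate 3 h earlier. Aurka, the spindle kinase Aurora A, was at 289, 480.2, 209 and 321 CPM in the no-pyruvate libraries, against 713, 926 and 824 CPM in the very late 2-cell libraries (log2 change -1.39 ± 0.19 (SE), adjusted p = 6.4e-07, limma). Ccnb3, cyclin B3, was at 1.02, 2.95, 1.66 and 3.07 CPM in the no-pyruvate libraries, against 11.7, 11.4 and 21.6 CPM in the very late 2-cell libraries (log2 change -2.32). The 3 genes did not overlap between the groups, and no-pyruvate library 2 was the highest of its group for Cdc20 and Aurka. Of 36 replication genes, 7 were higher and 13 lower, with Gins2 among the lower and Rfc3, a subunit of the clamp loader, among the higher at 34.7, 36.7, 62.6 and 42.0 CPM in the no-pyruvate libraries, against 6.87, 15.5 and 7.47 CPM in the very late 2-cell libraries (log2 change 2.08 ± 0.25 (SE), adjusted p = 1.1e-07, limma).

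Of 27 genes of the p53 and DNA damage response, 8 were higher and 5 lower, beside 18.4% and 16.1% of all genes. Btg2, an antiproliferative p53 target, was at 75.3, 28.8, 81.1 and 55.0 CPM in the no-pyruvate libraries, against 3.87, 8.48 and 6.10 CPM in the very late 2-cell libraries (log2 change 3.04). Gadd45g, a stress sensor, was at 12.9, 6.27, 25.6 and 6.63 CPM in the no-pyruvate libraries, against 2.75, 2.39 and 1.98 CPM in the very late 2-cell libraries (log2 change 1.83 ± 0.34 (SE), adjusted p = 6.7e-05, limma). Pmaip1, the proapoptotic protein NOXA, averaged 69.3 ± 19.7 CPM in no-pyruvate embryos, against 14.0 ± 2.70 CPM in very late 2-cell embryos (SD, n = 4 and 3). All 3 lay above every standard library.

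Of 30 heat shock and unfolded protein response genes, 12 were higher and 4 lower, beside 18.4% and 16.1% of all genes. Herpud1 led, and Xbp1, a transcription factor of that response, was at 17.1, 23.1, 31.2 and 14.2 CPM in the no-pyruvate libraries, against 5.24, 5.68 and 3.01 CPM in the very late 2-cell libraries (log2 change 1.97). Hspa1a, inducible HSP70, was at 11.7, 4.53, 13.8 and 5.23 CPM in the no-pyruvate libraries, against 2.63, 2.35 and 1.77 CPM in the very late 2-cell libraries (log2 change 1.47 ± 0.34 (SE), adjusted p = 8.6e-04, limma). The chaperone Hspa5, a classical target of the response, had a log2 change of -0.20 and did not pass. Of 30 NRF2 targets, 10 were higher and 3 lower, beside the same shares of all genes. Gstm1, a glutathione transferase, was at 3.80, 22.4, 21.1 and 7.53 CPM in the no-pyruvate libraries, against 0.0001, 3.13 and 0.906 CPM in the very late 2-cell libraries (adjusted p = 3.8e-05, limma), and Hmox1, heme oxygenase, at 11.7, 12.9, 41.7 and 7.74 CPM in the no-pyruvate libraries, against 4.68, 6.26 and 1.80 CPM in the very late 2-cell libraries (log2 change 1.72 ± 0.33 (SE), adjusted p = 1.2e-04, limma). Of 30 ATF4 targets, 6 were higher and 3 lower, near the share of all genes, although the stress factor Atf3 was at 15.9, 6.43, 39.1 and 6.45 CPM in the no-pyruvate libraries, against 0.0001, 0.741 and 1.46 CPM in the very late 2-cell libraries (log2 change 3.10).

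Of 28 genes of AMPK and mTOR nutrient sensing, 11 were higher and 4 lower, led by Klf6 and by Klf10, a zinc finger repressor, at 83.4, 36.7, 101 and 78.0 CPM in the no-pyruvate libraries, against 5.45, 8.65 and 10.4 CPM in the very late 2-cell libraries (log2 change 3.00). Of 25 genes of cholesterol synthesis, 7 were higher and 4 lower. Both of these lists stand beside 18.4% higher and 16.1% lower over all genes. Mvd, a mevalonate pathway decarboxylase, was at 11.5, 4.29, 13.1 and 8.97 CPM in the no-pyruvate libraries, against 1.07, 0.659 and 0.859 CPM in the very late 2-cell libraries (log2 change 2.41), and Sc5d, a late enzyme of the pathway, at 44.2, 49.5, 71.3 and 73.4 CPM in the no-pyruvate libraries, against 12.6, 19.2 and 15.4 CPM in the very late 2-cell libraries (log2 change 1.84). Mvk, mevalonate kinase, stood lower with 4.02 ± 2.15 CPM in no-pyruvate embryos, against 9.84 ± 2.20 CPM in very late 2-cell embryos, and that call was lost with only the compared groups in the fit. Sirt3, the mitochondrial deacetylase, was at 8.16, 13.4, 29.9 and 13.4 CPM in the no-pyruvate libraries, against 1.93, 3.30 and 3.75 CPM in the very late 2-cell libraries (log2 change 1.99 ± 0.27 (SE), adjusted p = 8.2e-07, limma), above all standard libraries.

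**Figure D5:**
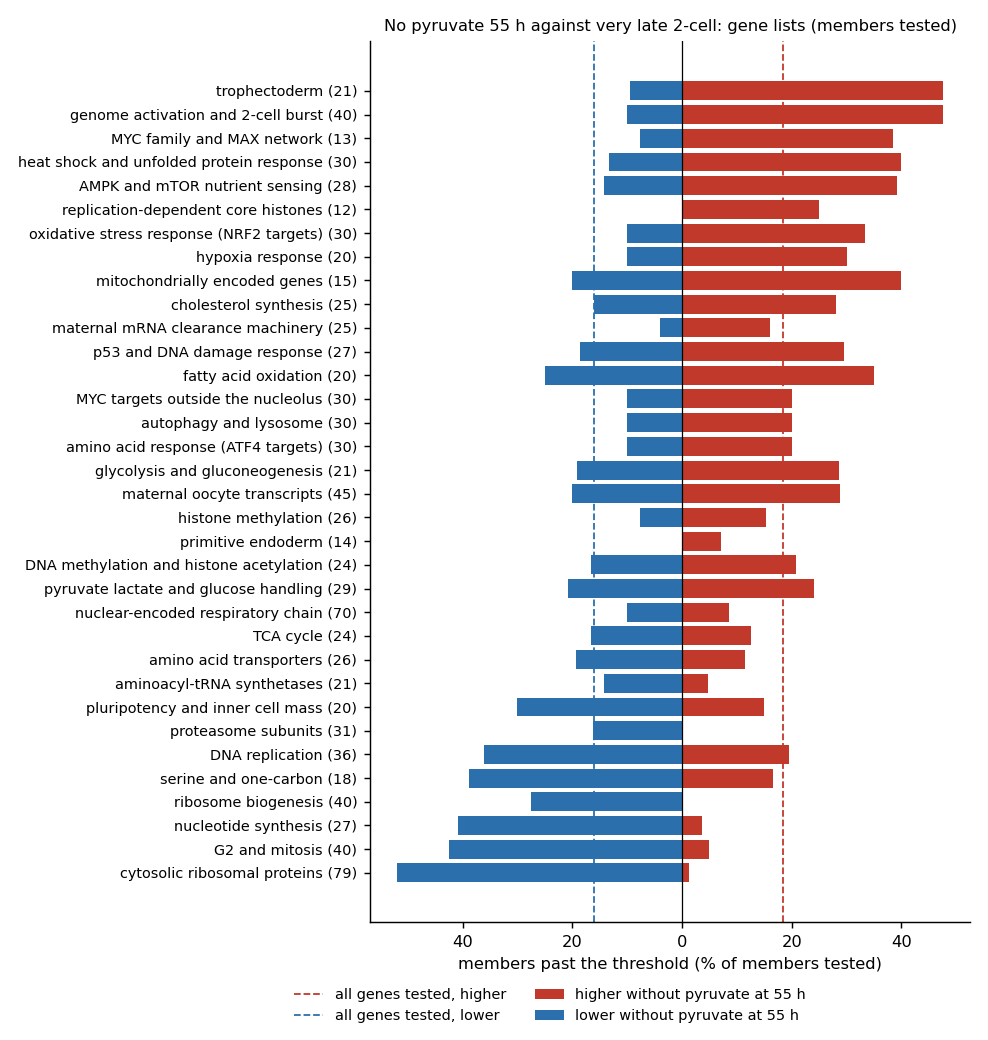
Share of the tested members of each gene list that were higher (red, right) or lower (blue, left) in no-pyruvate embryos at 55 h than in very late 2-cell embryos, in percent, with the number of members tested in brackets. Dashed lines mark the shares of all genes, 18.4% higher and 16.1% lower, and lists of under 12 tested members are left out.

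Some genes of the later lineages differed as well. Of 21 trophectoderm genes, 10 were higher and 2 lower, with a median log2 change of 0.62. Over all genes 18.4% were higher and 16.1% lower. Aqp3, a water and glycerol channel, was at 20.7, 15.1, 20.4 and 22.4 CPM in the no-pyruvate libraries, against 2.29, 1.65 and 2.32 CPM in the very late 2-cell libraries (log2 change 2.73), and Krt18, a keratin, at 16.9, 10.1, 19.9 and 15.8 CPM in the no-pyruvate libraries, against 1.12, 2.80 and 2.90 CPM in the very late 2-cell libraries (log2 change 2.36). Elf5, a factor of the trophoblast lineage, was at 6.83, 4.70, 6.56 and 8.29 CPM in the no-pyruvate libraries, against 1.37, 2.33 and 1.46 CPM in the very late 2-cell libraries (log2 change 1.48 ± 0.33 (SE), adjusted p = 7.8e-04, limma). These 3 genes did not overlap between the groups. Tead4, the factor that starts the trophectoderm programme, was lower, at 33.5, 27.8, 13.6 and 22.4 CPM in the no-pyruvate libraries, against 53.6, 72.4 and 61.9 CPM in the very late 2-cell libraries (log2 change -1.39), as was Tfap2c (log2 change -0.90), and Cdx2 was at the lowest value of the table. Of 20 pluripotency genes, 3 were higher and 6 lower. Tfcp2l1, a factor of naive pluripotency, was at 0.068, 4.84, 0.098 and 0.491 CPM in the no-pyruvate libraries, against 9.67, 4.09 and 10.05 CPM in the very late 2-cell libraries (log2 change -2.24 ± 0.41 (SE), adjusted p = 6.5e-05, limma), with overlap in 1 library.

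A second stage-matched pair, which shares no library with the first but was tested in the same fit, was compared in the same way. No-pyruvate embryos at 48 h (5 libraries, mean stage position 0.272) were set against mid 2-cell embryos at 42 h in complete KSOM (4 libraries, 0.259). Of all genes 3729 (18%) were higher and 659 (3.18%) lower, around a median log2 change of 0.26, and after median-ratio scaling 1102 were higher and 1465 lower. Of the off-line genes that rose at 55 h, 397 also rose at 48 h, which is 18.8% of the 55 h list, while 14.8% of all off-line genes rose at 48 h, and 30.8% of the 48 h list, while 24.2% of all off-line genes rose at 55 h. Of the 2115 off-line genes that rose at 55 h, 37 fell at 48 h, while 2.29% of all off-line genes did. Of the off-line genes that fell at 55 h, 37 also fell at 48 h, which is 4.17% of the 55 h list, while 2.29% of all off-line genes fell at 48 h, and 18.5% of the 48 h list, while 10.2% of all off-line genes fell at 55 h. Of the 888 off-line genes that fell at 55 h, 92 rose at 48 h, while 14.8% of all off-line genes did. With the 48 h pair median-ratio scaled, 388 of the 8732 off-line genes of the main test rose at 48 h and 405 fell. Of the 2115 that rose at 55 h, 137 then rose at 48 h and 81 fell. Of the 888 that fell at 55 h, 94 then fell at 48 h and 23 rose. In the main fit both pairs used the same estimate of spread for each gene, so their calls were not independent. A gene with a low estimate passes more easily in both pairs. How far that raised the counts of genes called in both pairs was not tested.

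Ppp1r15a, the GADD34 subunit that ends the integrated stress response, fell in both pairs. It was at 144, 129.7, 49.1 and 108 CPM in the no-pyruvate libraries, against 209, 281 and 172 CPM in the very late 2-cell libraries (log2 change -1.11 ± 0.30 (SE), adjusted p = 0.0039, limma), and at 56.7 ± 15.9 CPM at 48 h without pyruvate, against 119 ± 3.54 CPM in mid 2-cell embryos (SD, n = 5 and 4), a log2 change of -1.10 (adjusted p = 0.003, limma). Among line genes higher in both pairs were Yod1, with log2 changes of 3.12 at 55 h and 1.79 at 48 h, Impact, which restrains the amino acid sensing kinase GCN2, with 2.03 and 1.79, and Anxa2, a membrane-binding annexin, with 2.75 and 1.73. Figla, Bex3 and Herpud1 had log2 changes of 0.85, 0.93 and 0.94 at 48 h (adjusted p = 0.031, 0.049 and 0.056, limma), beside 4.98, 4.49 and 3.70 at 55 h, and the difference between the pairs was not tested.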

How the data were processed

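RNA of single libraries was read by Smart-seq2 per the labels' protocols, and the submitters' processing notes name STAR 2.6.1d and the mouse build mm10; the counting tool, its strand setting and the annotation are not given in the sources used here. The deposited table gives CPM, read counts that the authors scaled to a common total, for each gene and library, with 0.0001 as its lowest value. Whole reads could not be recovered: 69.7% to 78.3% of the low values of a library were within 0.1 of a whole number of reads. Of 91 columns, 85 were matched to samples by the name in the sample's description and 6 were not used. Of 37394 rows, 26 were named by numbers (0.0458% to 0.194% of the values) and left out, and GENCODE vM21 (GRCm38) gave positions for 36810 of the other 37368 symbols.

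limma 3.58.1 (R 4.3.3) was run on log2(CPM + 1) with a group term over 9 groups at 34 to 55 h (34 libraries), for genes above 1 CPM in at least 3 of them, with trended empirical Bayes and 2-sided Benjamini-Hochberg adjustment over all genes tested, at a threshold of 0.05. The added 1 makes the fold changes of low genes smaller than they were, and intervals of counting error are not given because whole reads are not known. On simulated data for this comparison (20374 genes), 58 of 100 genes changed by 1 on the log2 scale and 99 of 100 changed by 2 were recovered, with 11 false calls. The changed genes were drawn from the more abundant ones only, and each gene had the same normal spread in every group. The real groups differed in spread (median SD 0.448 and 0.249), so the simulation does not measure the error rate of the real comparison. Python 3.11.15, numpy 2.4.6, pandas 2.3.3 and matplotlib 3.10.9 were used.

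The groups, the members and the gene lists were chosen with earlier results of these data known. Genes named from the table of all genes, at 20 CPM or more in the higher group, were the largest differences without overlap off and on the stage line, those farthest outside the standard course (with 20 CPM or more in the nearest library on the higher side), the largest that passed the same way in both pairs, and the most changed members of each list. AY036118, the longer lysosomal list and the promoter motifs were chosen after values were seen, as were the lysosomal, trophectoderm and marker genes named beside them. The alternatives were a pseudocount of 0.1, a filter of 5 CPM or none, median-ratio and quantile scaling, the 2 compared groups alone, a replicate block, and leaving out each library. Members of near-identical families (Duxf3, Pramef25, Usp17lc, Zscan4d, tubulin and ribosomal protein genes) are uncertain, since reads can be split among copies. Some items that the naming rules select are not reported here.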

Additional observations from a re-analysis of the deposited data

Results flagged for a closer look

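In 4 genes 1 no-pyruvate library at 55 h stood far from the other 3 by Dixon's criterion, which chance meets in about 1 in 20 groups. The 4 were not set against the number that this rate gives over all genes screened, so chance alone may have flagged them. Ppp2r3a was at 6.49 CPM in no-pyruvate library 2, with the other 3 at 2.70 to 3.12 CPM. Pdp1 reached 12.7, 10.7, 39.1 and 8.35 CPM in no-pyruvate libraries 1 to 4, of which 39.1 CPM was far from the rest. Hmox1 was at 41.7 CPM in library 3, and the other 3 were at 7.74 to 12.9 CPM. Tfcp2l1 was at 4.84 CPM in library 2, and the other 3 were at 0.491 CPM or less.

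In 5 genes every library at 48 h without pyruvate lay on the other side of mid 2-cell embryos from the side seen at 55 h against very late 2-cell embryos. The difference between the 2 pairs was not tested. Kyat3 had a log2 change of 0.59 at 48 h and -2.77 at 55 h. Pramef25 had -0.36 at 48 h and 3.53 at 55 h. Idh2 had 0.84 at 48 h and -1.56 at 55 h. Slc7a6, a cationic amino acid transporter, had 0.90 at 48 h and -1.68 at 55 h. P4ha1, a collagen prolyl hydroxylase subunit, had 0.89 at 48 h and -2.01 at 55 h.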

How the results depend on the processing

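All alternatives below were planned with the design. For the 55 h pair, fitting the 2 compared groups alone left 3151 genes, 1711 higher and 1440 lower, with 834 higher and 289 lower off the stage line. The filter gave 1044 higher and 517 lower off-line genes at 5 CPM, where fewer genes are tested, and 1387 lower without a filter. Leaving out 1 library gave 5781 to 7799 genes, 3031 to 4067 higher and 2581 to 3824 lower, and off the line 1717 to 2215 higher and 706 to 1020 lower. For the 48 h pair, fitting the 2 groups alone gave 7522 genes, 6501 higher and 1021 lower, and off the line 2319 and 328. Median-ratio scaling gave 2567 genes, 1102 higher and 1465 lower, and off the line 390 and 417. Quantile scaling gave 2387 genes, 1043 higher and 1344 lower, and off the line 322 and 428, and no filter gave 302 lower off-line genes. Leaving out 1 library of the 48 h pair gave 2864 to 4037 genes, 2401 to 3496 higher and 463 to 747 lower, with 806 to 1162 higher and 146 to 211 lower off the line. The lowest of these totals came without mid 2-cell library 1. Genes above the standard course numbered 582 after median-ratio scaling and 472 after quantile scaling, and 945 to 1399 without 1 library of either group. Without no-pyruvate library 1 they numbered 1396 and without no-pyruvate library 2 1399, a smaller group having fewer libraries to clear the range. Genes below it numbered 144 after median-ratio scaling, 193 after quantile scaling, 61 to 126 without 1 library of either group, 126 being without no-pyruvate library 2, and 514 against standard groups at 48 to 55 h only. Mean stage position was 0.8333 in no-pyruvate embryos and 0.8784 in very late 2-cell embryos with early 4-cell embryos as the upper end, and 0.6944 and 0.7314 after median-ratio scaling. Where no reason is given, the cause was not tested. Of 120 genes named from the lists and rules, 106 kept their call under every alternative, 14 lost it under at least 1 and none was reversed, and 849 of 980 recomputed list counts stayed within 1.5 times. The labels state no pairing of libraries. Deviations of libraries with the same replicate number in their titles correlated at 0.00831, 0.047 and 0.0219 across genes. The column names number some of these libraries differently, and pairing by those numbers was not tested. The check therefore cannot settle whether libraries were paired. With a replicate block 7027 genes passed at 55 h (3698 higher and 3329 lower, and off the line 2052 and 865) and 3975 at 48 h.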

Other observations

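Further lists of genes, named as in the report, had these counts, beside 18.4% higher and 16.1% lower over all genes. Of 26 amino acid transporters, 3 were higher and 5 lower in no-pyruvate embryos at 55 h. Slc7a6 was at 16.9, 28.5, 21.8 and 8.54 CPM in the no-pyruvate libraries, against 50.4, 64.1 and 60.4 CPM in the very late 2-cell libraries (log2 change -1.68), and the taurine transporter Slc6a6 had a log2 change of -1.64. Of 8 genes of the pentose phosphate pathway, 1 was higher and 2 were lower, Rpe and the transketolase Tkt (log2 change -1.39). Of 31 proteasome subunits, 5 were lower and none higher, led by Psmd8 (log2 change -1.31). Of 21 aminoacyl-tRNA synthetases, 1 was higher and 3 lower. Of 30 MYC targets, 6 were higher and 3 lower, and cyclin D2 (Ccnd2) was at 12.6, 16.4, 20.5 and 28.7 CPM in the no-pyruvate libraries, against 2.06, 3.05 and 1.72 CPM in the very late 2-cell libraries (log2 change 2.61 ± 0.39 (SE), adjusted p = 3.1e-06, limma).

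Of 12 core histone genes, 3 were higher and 0 lower, of 25 genes of the maternal mRNA clearance machinery 4 and 1, and of 26 histone methylation genes 4 and 2. Of 20 hypoxia response genes, 6 were higher and 2 lower. P4ha1 was at 5.83, 3.64, 5.39 and 1.54 CPM in the no-pyruvate libraries, against 21.9, 12.4 and 21.9 CPM in the very late 2-cell libraries (log2 change -2.01), below every standard library, whose lowest value was 6.69 CPM. Of 24 genes of DNA methylation and histone acetylation, 5 were higher and 4 lower. Tet2, a methylcytosine oxidase, averaged 15.3 ± 5.33 CPM in no-pyruvate embryos, against 6.21 ± 2.37 CPM in very late 2-cell embryos (SD, n = 4 and 3). Of 14 primitive endoderm genes, 1 was higher and none lower. Nanog, of the pluripotency list, was at 12.2, 14.8, 17.4 and 15.8 CPM in the no-pyruvate libraries, against 7.25, 9.20 and 5.92 CPM in the very late 2-cell libraries (log2 change 0.93 ± 0.25 (SE), adjusted p = 0.0037, limma).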
